A study of Rattus norvegicus with 6 samples.

Results

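The contractile genes of vascular smooth muscle were examined in the pulmonary veins (PVs) of neonatal rats after bilateral pulmonary vein banding (BPVB). They are 10 genes chosen by symbol: Acta2, Tagln, Myh11, Cnn1, Myl9, Des, Lmod1, Smtn, Myocd and Actg2. All 10 were found among the 17833 genes of the deposited table, and all 10 were among the 15150 genes with a mean of at least 0.1 FPKM (fragments per kilobase of gene, scaled by the counted fragments of the library), which were tested. Bulk RNA-seq was available for 3 BPVB rats and 3 sham-operated rats, all wild-type Sprague-Dawley animals. Surgery was performed at postnatal day 1, and the PV of the right upper lobe was collected at postnatal day 21. The sham rats went through the same opening of the chest and exposure of the veins, with a suture passed and withdrawn but no banding. Each library came from 1 rat, and each specimen was a piece of whole vein with all of its cell types.

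Smooth muscle cells contract when a phosphorylated regulatory light chain lets smooth muscle myosin pull on actin filaments that are anchored in dense bodies. The genes of this apparatus are switched on together by serum response factor (SRF), which binds a short element called the CArG box, and by its coactivator myocardin. Smooth muscle cells of injured vessels can lower these genes and take up a proliferative, matrix-forming state, often called synthetic. In the rat, the PV media is wrapped by a sleeve of atrial cardiomyocytes, which carry their own sarcomeric actin and myosin.

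The contractile genes did not move as a block. Actg2, Myh11, Acta2, Cnn1 and Tagln were lower in the BPVB group, Des and Lmod1 were higher, and Myl9, Smtn and Myocd did not pass the test. The changes ran from a loss of 41.1% of the sham mean for Actg2 to a gain of 33.2% for Des. A gene was called at an adjusted p under 0.05 (limma on log2(FPKM + 0.5), two-sided, Benjamini-Hochberg adjustment over all tested genes). By this rule 7 of the 10 genes were called, 5 lower and 2 higher, where 31.5% of all tested genes were called, 14.3% lower and 17.2% higher. Among the 6212 genes with a mean at or above that of Myocd, the lowest of the 10, the share called was 44.6%. The log2 fold changes of the 10 genes lay between -0.76 and 0.41, so that none reached 1 in size, whereas 3.27% of all tested genes passed that size together with the adjusted p. The median log2 fold change was -0.10 over the 10 genes and 0.02 over all tested genes.

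These are abundant transcripts, measured with little spread between the libraries of a group. At least 1956 and up to 61428 fragments per library lay behind each value. The SD between the 3 rats of a group was between 0.48% and 5.09% of the mean. How much of this spread comes from counting and how much from differences between rats was not tested. Tagln ranked 20 and Acta2 ranked 24 of the tested genes by mean FPKM. The order of the levels in the sham group, per length of the gene, was Tagln, Acta2, Myl9, Des, Actg2, Myh11, Cnn1, Lmod1, Smtn and Myocd, and no neighbours in this order overlapped. The order of the means was the same in the BPVB group, but there the values of Actg2 and Myh11 overlapped. The summed level of the 10 genes was 5476 to 5525 FPKM in the BPVB libraries and 5875 to 5908 FPKM in the sham libraries.

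**Figure D1:**
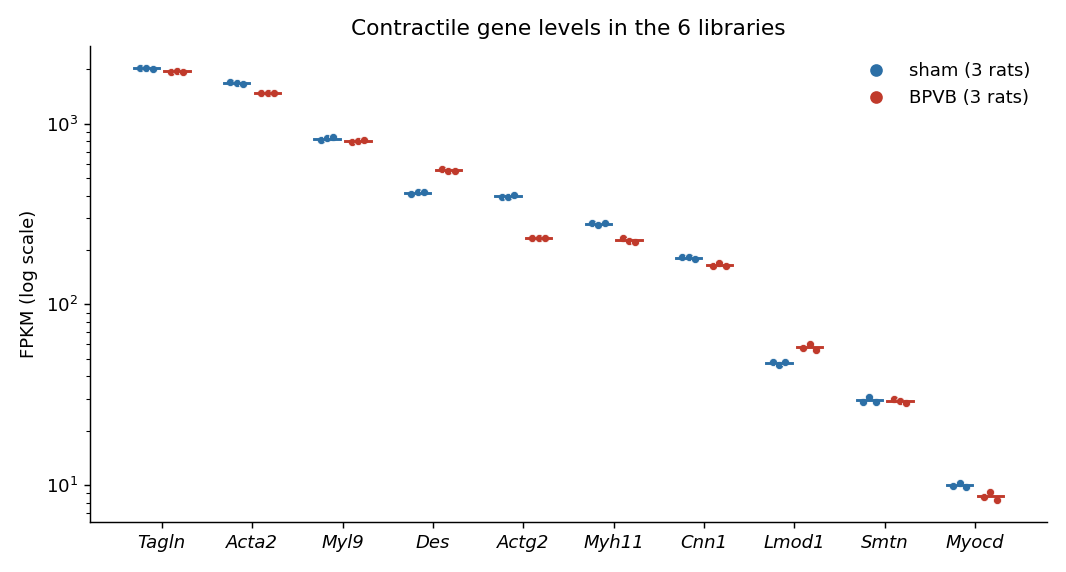
FPKM (y axis, log scale) of the 10 contractile genes (x axis) in the 3 sham libraries (blue) and the 3 BPVB libraries (red), with horizontal lines at the group means. The order of the means runs from Tagln at about 2000 FPKM to Myocd below 11 FPKM, and Actg2 drops to the level of Myh11 in the BPVB group.

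The actins are the thin filament itself. Actg2, the gamma-actin of smooth muscle, is best known from visceral muscle and is also made in vessels. Its FPKM was 234, 232 and 234 in BPVB rats 1 to 3 and 395, 392 and 400.3 in sham rats 1 to 3. The groups lay far apart, with every BPVB library near 59% of the sham mean. The log2 fold change came to -0.76 with a standard error of 0.023 (adjusted p = 7.9e-08), the largest change of the 10 genes in either direction.

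Acta2 encodes α-SMA, the alpha-actin of vascular smooth muscle and the usual stain for myofibroblasts. Its FPKM was 1467, 1485 and 1481 in BPVB rats 1 to 3 and 1704, 1672 and 1663 in sham rats 1 to 3. The 3 BPVB libraries were below all sham libraries, and the difference of 202 FPKM was larger than the 162 FPKM lost by Actg2, although its share of the sham mean was smaller, at 12.0%. The log2 fold change came to -0.18 with a standard error of 0.019 (adjusted p = 1.3e-04).

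The 250 bases before the transcription start of Acta2 are shown because SRF is known to act on this gene through CArG boxes. They are taken from RefSeq (build GRCr8, chr1:241172504-241172753, minus strand), and the capitals mark the CArG-like elements. The stretch before the start of Des (chr9:84299376-84299625, plus strand), the member that rose most, is given for comparison and holds no such element.
Acta2: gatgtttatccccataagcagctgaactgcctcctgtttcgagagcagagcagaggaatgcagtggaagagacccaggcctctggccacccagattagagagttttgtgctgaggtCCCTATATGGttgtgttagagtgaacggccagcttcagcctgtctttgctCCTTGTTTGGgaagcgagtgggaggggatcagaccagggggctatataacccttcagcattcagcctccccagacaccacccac
Des: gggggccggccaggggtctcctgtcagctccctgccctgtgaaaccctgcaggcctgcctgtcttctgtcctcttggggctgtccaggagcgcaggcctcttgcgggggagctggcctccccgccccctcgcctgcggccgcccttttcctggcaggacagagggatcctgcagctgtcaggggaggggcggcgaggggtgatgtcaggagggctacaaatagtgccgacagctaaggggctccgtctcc
RefSeq windows of 300 bases (250 before and 50 after the start) were at hand for 5 of the 10 genes: Acta2, Actg2, Cnn1, Des and Smtn. The window of Actg2 lies inside the gene as annotated. A strict CArG box, with only A or T at the 6 inner positions, was found in none of the 5 windows and in 1.64% of all 33469 windows. With 1 of the 6 inner bases allowed to be G or C, Acta2 held both elements printed above, which begin 134 and 84 bases before the start, and the other 4 windows held none. This relaxed form, which was chosen after the strict search, was found in 9.42% of all windows. The element reads as the same pattern on both strands. A match is a description of the letters and not of SRF binding, and the windows leave out the first introns and distal elements.

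The other muscle actins moved too. Actc1, the cardiac actin of the myocardial sleeve, had a mean of 3949 ± 19 FPKM (SD, n = 3) in the sham group and 3172 ± 34 FPKM (SD, n = 3) in the BPVB group (log2 fold change -0.32, adjusted p = 2.7e-06). Acta1, the skeletal actin, which the heart also makes early in life and under load, rose from 56.0 ± 0.91 to 148 ± 5.3 FPKM (SD, n = 3 each, log2 fold change 1.39, adjusted p = 2.9e-08). These 4 actins are nearly identical as proteins, but how many reads match more than 1 of their genes was not measured. How the counting treated such reads is not given in the sources used here, so the values are uncertain to that extent.

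Myh11, the heavy chain of smooth muscle myosin and the most specific marker of mature smooth muscle among the 10, had an FPKM of 232, 225 and 222 in BPVB rats 1 to 3 and 281, 276 and 280.1 in sham rats 1 to 3. The groups did not overlap, and the BPVB mean was 18.8% below the sham mean. The log2 fold change came to -0.30 with a standard error of 0.026 (adjusted p = 4.2e-05). Myl9, the regulatory light chain that is phosphorylated to start contraction, was at 790, 805 and 814 FPKM in BPVB rats 1 to 3 and at 810, 828 and 840 FPKM in sham rats 1 to 3. Here the groups overlapped, and the log2 fold change of -0.04 had a 95% interval from -0.09 to 0.01 (adjusted p = 0.22). The difference between the changes of Myh11 and Myl9 was not tested.

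Cnn1 encodes calponin, an actin-binding protein that restrains the myosin motor. Its FPKM was 163, 168 and 164 in BPVB rats 1 to 3 and 182, 183 and 177 in sham rats 1 to 3. The groups did not overlap, and the log2 fold change came to -0.13 with a standard error of 0.028 (adjusted p = 0.0065). Tagln encodes transgelin, another small actin-binding protein, also called SM22. It was at 1934, 1964 and 1933 FPKM in BPVB rats 1 to 3 and at 2042, 2032 and 2009 FPKM in sham rats 1 to 3. The groups were apart by a narrow margin, and the mean fell by 4.13% of the sham mean (log2 fold change -0.06 with a standard error of 0.019, adjusted p = 0.035). Leaving out any library but that of BPVB replicate 2 ended this call (adjusted p from 0.061 to 0.12 in these 5 fits, and 0.049 without BPVB replicate 2). It was also lost without the filter on low values (0.080) and on TPM (0.28), and after quantile normalization Tagln had a log2 fold change of 0.02. Smtn, which encodes smoothelin of the most differentiated contractile cells, was at 29.8, 29.2 and 28.5 FPKM in BPVB rats 1 to 3 and at 28.9, 30.6 and 28.7 FPKM in sham rats 1 to 3. The groups overlapped, and the log2 fold change of -0.01 had a 95% interval from -0.11 to 0.09 (adjusted p = 0.89).

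The 2 genes that rose were Des and Lmod1. Des encodes desmin, the intermediate filament that ties dense bodies and Z discs together in all muscle types. Its FPKM was 561, 547 and 548 in BPVB rats 1 to 3 and 408, 416 and 420 in sham rats 1 to 3. Every BPVB library was above every sham library by more than 100 FPKM, and the log2 fold change came to 0.41 with a standard error of 0.023 (adjusted p = 2.7e-06). Lmod1, leiomodin, which nucleates actin filaments in smooth muscle, was at 57.0, 60.3 and 56.1 FPKM in BPVB rats 1 to 3 and at 47.9, 46.1 and 47.8 FPKM in sham rats 1 to 3. The groups did not overlap, and the mean was 22.3% higher (log2 fold change 0.29 with a standard error of 0.040, adjusted p = 6.8e-04).

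Myocd, which encodes myocardin itself, was at 8.57, 9.13 and 8.26 FPKM in BPVB rats 1 to 3 and at 9.94, 10.2 and 9.73 FPKM in sham rats 1 to 3. All BPVB libraries were below all sham libraries, but the test was not passed (log2 fold change -0.19, standard error 0.066, 95% interval from -0.34 to -0.04, adjusted p = 0.053). Over its alternatives the adjusted p ranged from 0.0029 with limma-voom on recovered fragments to 0.15 without BPVB replicate 3, and Myocd was also called with a filter at a mean of 1 FPKM (0.046), with median-of-ratios scaling (0.033) and after quantile normalization (0.030). In all, the groups did not overlap in 8 of the 10 genes, 6 lower and 2 higher. This held for 45.6% of all tested genes, 20.5% lower and 25.2% higher. The share without overlap among abundant genes alone was not computed.

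**Figure D2:**
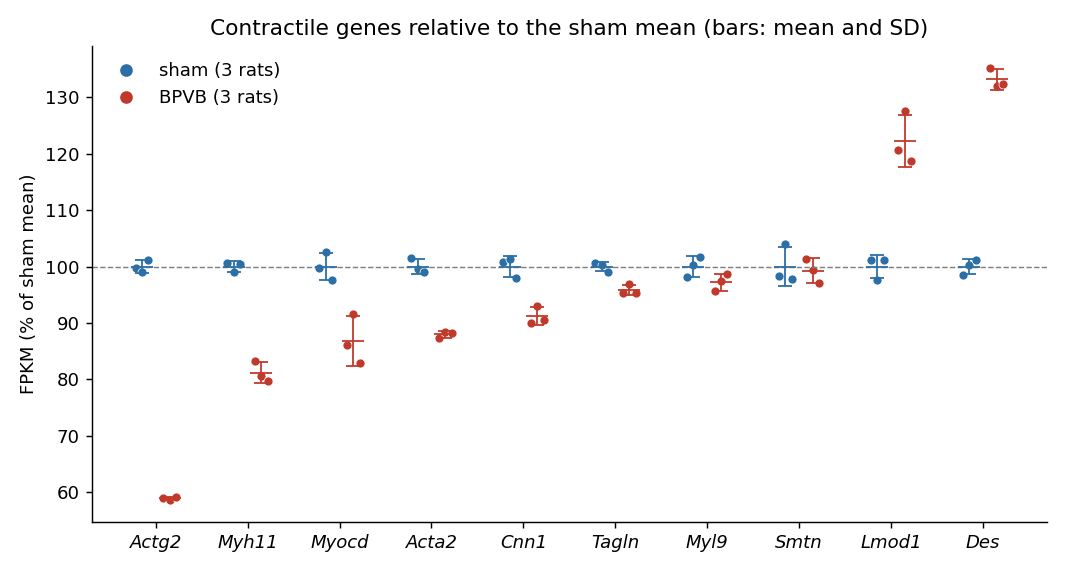
FPKM of each contractile gene as a percentage of its sham mean (y axis), with genes ordered by log2 fold change (x axis), for 3 sham libraries (blue) and 3 BPVB libraries (red), with mean and SD. The BPVB libraries of Actg2 lie near 59%, those of Des between 132% and 135%, and the ranges of Myl9 and of Smtn overlap those of the sham libraries.

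Ratios between genes of the same library do not change when each library is scaled by a single factor, although quantile normalization can change them. Actg2 stood at 15.9%, 15.6% and 15.8% of the Acta2 level in the BPVB libraries and at 23.2%, 23.4% and 24.1% in the sham libraries. Des stood at 38.2%, 36.8% and 37.0% of Acta2 in the BPVB libraries and at 23.9%, 24.9% and 25.2% in the sham libraries. Relative to Acta2, Actg2 was therefore lower and Des higher by much more than the spread between rats. The ratio of Myh11 to Acta2 was slightly lower, at 15.3% ± 0.44 against 16.6% ± 0.21 (SD, n = 3 each), and that of Cnn1 to Acta2 was 11.2% ± 0.14 against 10.8% ± 0.17 (SD, n = 3 each). These 4 ratios did not overlap between the groups (exact permutation test, two-sided, p = 0.1 for each, the smallest that 3 rats against 3 allow, and 0.125 after adjustment over the 5 ratios computed). The fifth, Myocd to Srf, was 34.5% ± 3.8 in the BPVB group and 39.3% ± 1.7 in the sham group (SD, n = 3 each) and overlapped (exact permutation test, p = 0.2, adjusted p = 0.2).

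**Figure D3:**
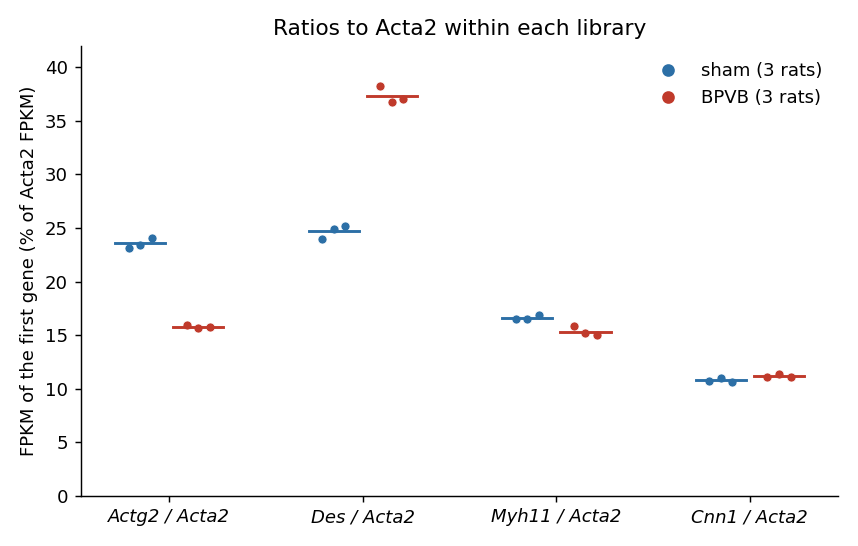
FPKM of Actg2, Des, Myh11 and Cnn1 as a percentage of the Acta2 FPKM of the same library (y axis, from 0), for 3 sham libraries (blue) and 3 BPVB libraries (red), with lines at the group means. Actg2 falls from about 24% to 16% of Acta2 and Des rises from about 25% to 37%, while Myh11 and Cnn1 shift by less than 2 percentage points.

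Actg2, Myh11, Acta2, Des and Lmod1 kept their direction and their call under all 16 alternatives tried. The log2 fold change of Acta2 was -0.21 with median-of-ratios scaling and -0.11 after quantile normalization. Cnn1 lost its call after quantile normalization only (log2 fold change -0.05, adjusted p = 0.22). The median log2 fold change of all tested genes stayed between -0.01 and 0.05 under the 3 other scalings. The balance of all calls depended on the scaling, with 2605 higher and 2170 lower on FPKM as deposited. It was 3000 and 1888 on TPM, 2362 and 2454 with median-of-ratios scaling, and 2354 and 2430 after quantile normalization.

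**Figure D4:**
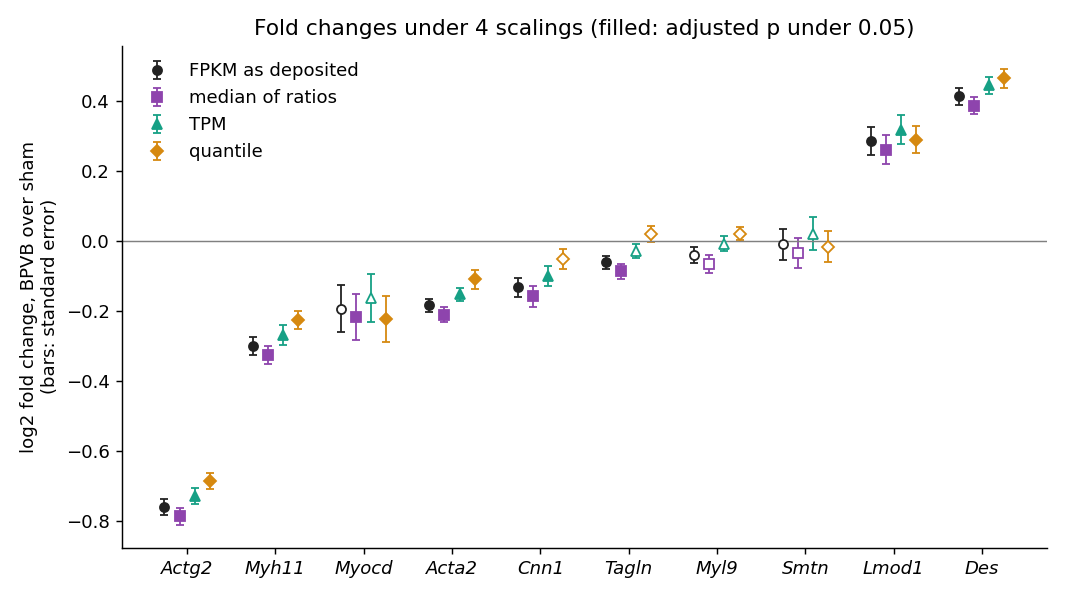
Log2 fold change of BPVB over sham (y axis, with standard error) of the 10 contractile genes (x axis) on FPKM as deposited and under 3 other scalings, with filled symbols for an adjusted p under 0.05. Actg2, Myh11 and Acta2 stay below 0 and Des and Lmod1 above it under each scaling, whereas Tagln, Myl9 and Smtn have values on both sides of 0.

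The regulators of the contractile program were read from a list of 12 genes. Of these, 4 were higher, 2 lower and 6 not called, where 17.2% of all tested genes were higher and 14.3% lower. The median log2 fold change of the 12 was 0.01. Srf was at 27.5, 23.6 and 24.6 FPKM in BPVB rats 1 to 3 and at 25.4, 24.9 and 25.9 FPKM in sham rats 1 to 3, with a log2 fold change of -0.01 and a 95% interval from -0.15 to 0.13 (adjusted p = 0.92). The myocardin-related factors, which link SRF to the pool of free actin, were also not called, Mrtfa at -0.05 (95% interval from -0.37 to 0.27) and Mrtfb at -0.03 (from -0.19 to 0.13). The signs of Srf, Mrtfa and Mrtfb turned when single libraries were left out. Elk1, the SRF partner of growth signals, had a log2 fold change of -0.09, Gata6 of 0.07 and Fhl2 of 0.03, none of them called. Both cysteine-rich proteins of the list, which bridge SRF and GATA factors, were called. Csrp2, known from smooth muscle of developing and injured arteries, was at 105, 115 and 119 FPKM in BPVB rats 1 to 3 and at 64.8, 76.1 and 65.9 FPKM in sham rats 1 to 3. Its groups were well apart (log2 fold change 0.71 with a standard error of 0.067, adjusted p = 6.9e-05). Csrp1 was also higher (log2 fold change 0.14, adjusted p = 0.0039).
The repressors of the program moved in different directions. Klf4, which competes with myocardin and SRF and is also made by endothelium, was lower, with 44.6 ± 1.5 FPKM in the BPVB group against 51.0 ± 0.62 FPKM in the sham group (SD, n = 3 each, log2 fold change -0.19, adjusted p = 0.0050). Klf5, a growth-associated factor of activated smooth muscle that lung epithelium also makes, rose from 0.340 ± 0.071 to 2.30 ± 0.16 FPKM (SD, n = 3 each). Its log2 fold change of 1.74 (standard error 0.13, adjusted p = 1.6e-05) was the largest of the list and rested on at least 22 fragments per library. It was 1.299 with a pseudocount of 1, 2.46 with a pseudocount of 0.1 and 2.76 with limma-voom on recovered fragments. Foxo4, which can hold myocardin inactive, was higher (0.22, adjusted p = 0.012), and Mef2c, a muscle transcription factor, was lower (-0.23, adjusted p = 0.012).

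The list of partners of the thin filament and the dense body held 22 genes. Of these, 5 were higher, 8 lower and 9 not called, where 17.2% of all tested genes were higher and 14.3% lower. The median log2 fold change of the 22 was -0.06. Tpm1, the tropomyosin that lies along the actin filament in smooth and cardiac muscle and the highest gene of the list, fell from 1448 ± 9.4 to 1006 ± 19 FPKM (SD, n = 3 each, log2 fold change -0.53, adjusted p = 4.8e-07). Nexn, an actin-binding protein of Z discs and focal contacts, had a log2 fold change of -0.41 (adjusted p = 3.4e-05), and Flna, filamin A, one of -0.30 (adjusted p = 3.7e-05). On the other side, Synpo2, an actin-binding protein of Z discs and dense bodies, was at 63.4, 63.4 and 63.9 FPKM in BPVB rats 1 to 3 and at 40.2, 39.8 and 40.9 FPKM in sham rats 1 to 3. Its groups were far apart (log2 fold change 0.65, adjusted p = 1.6e-06). Cnn2, the broadly expressed calponin, rose by 0.33 on the log2 scale while Cnn1 fell, and Tns1, tensin of focal adhesions, rose by 0.26. The number of lower genes was 4 on TPM and without BPVB replicate 3, and 5 after quantile normalization and when sham replicate 1 or 2 was left out.

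Of 17 genes that switch contraction on and off, 3 were higher, 6 lower and 8 not called, and the median log2 fold change was -0.01. Among all tested genes, 17.2% were higher and 14.3% lower. Mylk, the myosin light chain kinase, was at 90.0, 95.1 and 90.1 FPKM in BPVB rats 1 to 3 and at 104, 102 and 102 FPKM in sham rats 1 to 3. Its groups did not overlap (log2 fold change -0.16, adjusted p = 0.0052). Ppp1r14a, which inhibits myosin phosphatase, was lower (-0.21, adjusted p = 0.034). Of the 3 genes of the phosphatase in the list, named after their values were seen, the targeting subunit Ppp1r12a (-0.16, adjusted p = 0.029) and the catalytic subunit Ppp1cb (-0.10, adjusted p = 0.023) were lower, and the targeting subunit Ppp1r12b was not called (0.07, adjusted p = 0.25). Prkg1, the cGMP-dependent kinase, was higher (0.48, adjusted p = 6.6e-04), and so was Pln, phospholamban of the sarcoplasmic reticulum pump (0.27, adjusted p = 5.0e-05). Myl6, the essential light chain and the highest gene of the list, had a log2 fold change of -0.01 (95% interval from -0.07 to 0.06). The number of lower genes was 2 on TPM and when BPVB replicate 3 or sham replicate 1 was left out, and 3 when BPVB replicate 2 or sham replicate 2 was. The number of higher genes was 6 with limma-voom on recovered fragments.

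A list of 9 genes that accompany the synthetic state of smooth muscle was higher in all 9, where 17.2% of all tested genes were higher. The median log2 fold change of the 9 was 0.48. The list was chosen with earlier results of these data known. Thbs1, thrombospondin 1 of the provisional matrix, was at 57.1, 55.2 and 57.6 FPKM in BPVB rats 1 to 3 and at 29.3, 29.7 and 26.4 FPKM in sham rats 1 to 3, so that its groups were far apart (log2 fold change 0.98, adjusted p = 1.7e-06). Mgp, matrix Gla protein, an inhibitor of calcification, rose from 3330 ± 53 to 5349 ± 324 FPKM (SD, n = 3 each, log2 fold change 0.68). Spp1, osteopontin, rose from 2.88 ± 0.42 to 20.3 ± 1.9 FPKM (SD, n = 3 each, log2 fold change 2.62, adjusted p = 4.8e-07). The non-muscle myosin heavy chains Myh9 (0.18) and Myh10 (0.58) were both higher, whereas the smooth muscle heavy chain Myh11 was lower (-0.30). Macrophages and fibroblasts also express genes of this list, Spp1, Lgals3 and Vim among them. Macrophage markers were higher in 7 of 7, with a summed level of 676 to 697 FPKM in the BPVB libraries and 224 to 234 FPKM in the sham libraries. Most of this sum was Lyz2 (574 to 604 against 159 to 167 FPKM), which alveolar type II epithelium also makes, and the other 6 markers summed to 93.5 to 102 against 63.6 to 67.6 FPKM. Their part in these values was not tested.

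**Figure D5:**
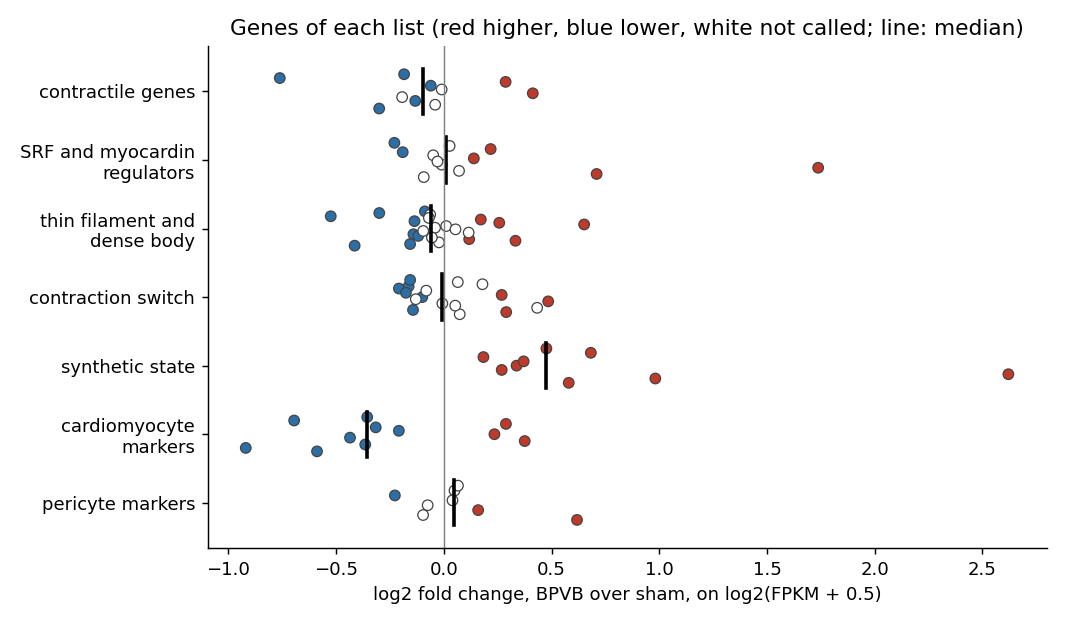
Log2 fold change of BPVB over sham on log2(FPKM + 0.5) (x axis) for each tested gene of 7 lists (y axis), red for higher and blue for lower at an adjusted p under 0.05, white for not called, with a black line at the median. The contractile genes and their partners lie on both sides of 0, all 9 synthetic-state genes lie above it, and 8 of the 11 cardiomyocyte markers lie below it.

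The deposited table assigns 4 of the 10 genes (Acta2, Actg2, Myh11 and Myl9) to the KEGG pathway of vascular smooth muscle contraction. This pathway was chosen after the table had been seen. Of its other 108 tested genes, 24 were higher, 25 lower and 59 not called, where 17.2% of all tested genes were higher and 14.3% lower. Among genes with a mean at or above that of Myocd, 44.6% were called in either direction. The median log2 fold change of the 108 was -0.0033. Of these 108, 5 were higher with a log2 fold change above 1. They were Pla2g4c, Pla2g1b and Pla2g2d, which encode phospholipases A2, Nppb, the cardiac natriuretic peptide B, and Ramp3, a receptor partner. Their sham means were 0.10, 0.46, 1.02, 7.09 and 0.79 FPKM in this order. Among all tested genes, 3.27% were called with a log2 fold change above 1 in size, in either direction. The largest called fall was that of Kcnmb4, a potassium channel subunit (-0.88, adjusted p = 0.012), so that none of the called falls reached 1 in size. These genes were named after their values had been seen.

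The labelled tissue was read against markers of its cell types. The smooth muscle markers Acta2, Tagln, Myh11, Cnn1 and Lmod1 were abundant in every library, and so were cardiomyocyte markers, whose 11 genes summed to 17124 to 17572 FPKM in the BPVB libraries and 23319 to 23792 FPKM in the sham libraries. Of these 11, 8 were lower and 3 higher, where 14.3% of all tested genes were lower and 17.2% higher. Desmin is also a cardiomyocyte protein. Des rose from 10.5% ± 0.16 to 17.4% ± 0.28 of the Actc1 level (SD, n = 3 each), while Acta2 went from 42.5% ± 0.56 to 46.6% ± 0.59 of it and Tpm1 from 36.7% ± 0.068 to 31.7% ± 0.71 (comparisons chosen after the values were seen). In the skeletal muscle list, Mylpf, Tnni2, Tnnc2, Myh1 and Myh2 were each below 1 FPKM in both group means, Tnnt3 was at 4.06 and 4.10 FPKM in the BPVB and sham means, Myh4 was not analysed here, and the 2 called genes of that list, Acta1 (higher) and Ckm (lower, log2 fold change -0.85), are also expressed in heart. Pericyte markers were mixed (2 higher, 1 lower, 5 not called), with Rgs5, which smooth muscle shares, lower (log2 fold change -0.23). Fibroblast markers were higher in 5 and lower in 2 of 8, and endothelial markers were lower in 4 and not called in 3 of 7. In the list for airway smooth muscle, where Actg2 is also made, Hhip and Lgr6 were higher and Foxf1, Chrm2 and Chrm3 were not called. Hhip was low, with means of 0.288 FPKM in the sham group and 1.55 FPKM in the BPVB group, and as few as 7 fragments in a library. Lung epithelial markers were higher in 8 of 8, with a summed level of 590 to 641 FPKM against 64.0 to 66.7 FPKM. In bulk tissue, fewer cells of a type and less RNA per cell cannot be told apart, and the part of these cell types in the changes of the contractile genes was not tested.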

How the data were processed

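Reads were cleaned by the authors with fastp and aligned with HISAT, fragments were assigned to genes with HTSeq-count, and the deposited table gives each gene an FPKM for each of 6 rats. The submitters' processing notes list HISAT2 2.0.5, StringTie 1.3.3b, featureCounts 1.5.0-p3 and DESeq2 1.20.0 instead. The genome build, annotation version and strand setting are not given in the sources used here. Columns were matched to samples by the first letter of the title and the replicate number, and the number of per-sample columns not used was 0.

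FPKM values are multiples of a step per gene and library, and whole fragments were recovered for 100.0% of the genes (tolerance 0.001 fragments). Library totals were 26078189 to 29725808 fragments in the BPVB group and 23439506 to 23821184 in the sham group. Groups were compared with limma 3.58.1 in R 4.3.3 (lmFit, eBayes with a trend) on log2(FPKM + 0.5), a scale that lowers the fold change of low genes, over genes with a mean of at least 0.1 FPKM. The procedure was tested on simulated data. Ratios were compared by exact permutation tests. Other steps were run in Python 3.11.15 with scipy 1.17.1. Members and lists were chosen with earlier results of these data known, and the KEGG pathway, the relaxed CArG search, the ratios to Actc1 and the share called among abundant genes were added after the values were seen. Named are the 10 genes, the 12 regulators, in 3 further lists the 3 largest called rises and falls and the highest gene, and, beyond this rule, genes said to be chosen later and marker genes that a result touches. In the contraction switch list, 1 called rise and 1 called fall that this rule names are not reported here.

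The alternatives were pseudocounts of 1 and 0.1, 2 other filters (none, and a mean of 1 FPKM), 3 other scalings (quantile normalization, TPM, and median of ratios), robust eBayes, a block for the replicate number, limma-voom on recovered fragments (at least 10 in all), and leaving out each of the 6 libraries.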

Additional observations from a re-analysis of the deposited data

How the results depend on the processing

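The number of contractile genes called higher was 2 under all 16 alternatives, and the number called lower was 4 to 6. With each library left out, the log2 fold change of Smtn ranged from -0.0262 to 0.0176, of Srf from -0.0729 to 0.0349, of Mrtfa from -0.16 to 0.11 and of Mrtfb from -0.0605 to 0.0135, and none of these was called. On TPM the log2 fold changes of Smtn (0.0209), Srf (0.0206) and Mrtfb (3.4e-04) had the opposite sign, and after quantile normalization those of Tagln (0.0195) and Myl9 (0.0208). The number of lower genes of the thin filament and dense body list was 4 on TPM, 5 after quantile normalization and 4 to 6 with each library left out. That of the contraction switch list was 2 on TPM and 2 to 5 with each library left out, and 6 of its genes were higher with limma-voom. Over all genes, 496 passed both thresholds, 325 with a pseudocount of 1, 901 with a pseudocount of 0.1 and 1122 with limma-voom.

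The labels number the rats 1 to 3 in each group. Correlations of the deviations from the group means between rats of the same number were 0.025, 0.014 and 0.015, so the numbers were not read as pairs, although each rat correlated best with its own number. With the replicate number as a block, the contractile genes called were again 2 higher and 5 lower, and 4539 in place of 4775 genes were called in all. At least 1956 fragments lay behind each value of the 10 genes, whereas Klf5 rested on as few as 22 and Spp1 on as few as 93.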
